A study of Mus musculus with 6 samples.

Results

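Macrophages from METRNL+/+ (WT) and METRNL-/- (METRNL KO, KO below) mice were compared across 31 genes that make non-essential amino acids and carry one-carbon units. The genes were the rows of the deposited table whose symbol was on a list of enzymes and 1 carrier of serine, folate, methionine, proline, asparagine, aspartate, alanine and glutamine metabolism. All 31 were found among 54532 gene rows, and they were divided into 11 mitochondrial and 20 cytosolic products. There were 3 WT and 3 KO libraries, all from primary macrophages challenged in culture with the yeast *Candida albicans* for 6 h, and no unchallenged library. The comparison therefore asks how these genes differ with the *Metrnl* genotype during the challenge, not how they respond to the fungus. *Metrnl* encodes meteorin-like, a secreted protein. The labels give neither the strain or age of the mice, nor the tissue the macrophages came from, nor how the gene was disrupted. They also do not say whether the replicates were separate animals or cultures, so every p-value reflects the spread among these 6 libraries alone, and that spread may be technical.

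Cells make serine from a glycolytic intermediate through 3 cytosolic enzymes, encoded by *Phgdh*, *Psat1* and *Psph*. Serine hydroxymethyltransferases pass a carbon of serine to folate, and parallel mitochondrial and cytosolic enzymes then carry that carbon to formate, purines and thymidylate. The methionine cycle uses folate carbon to renew the methyl donor S-adenosylmethionine. Proline is built from glutamate, and asparagine from aspartate with glutamine as nitrogen donor. Many of these genes are textbook targets of ATF4, a transcription factor whose protein is made when amino acids run short. In macrophages, serine and one-carbon metabolism are known for feeding glutathione, methylation and nucleotide synthesis during activation.

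The libraries held 11026529 to 15724897 reads in genes, and this depth limits the precision of the lowest genes. Reads were recovered from FPKM, which are fragment counts divided by gene length and a per-million total. In WT replicate 1 that total (16034203) was above the reads in genes (14309247), which lowers its FPKM. In KO replicate 1 the total (12793110) was below the reads in genes (14772746), which raises its FPKM. FPKM summed to 311409 and 412048 in these 2 libraries, against 334570 to 365689 in the others. The 31 genes took 0.0673% to 0.0765% of the reads in genes in WT and 0.0977% to 0.124% in KO. *Metrnl* RNA was present in the KO libraries, at 51.2, 63.6 and 62.8 FPKM, while WT had 93.5, 63.2 and 69.8 FPKM (limma, adjusted p = 0.181), so it does not check the labels and KO means the libraries labelled KO. The replicate 1 libraries stood apart. Their ratio of chi-square to degrees of freedom against the other libraries of their group was 39.6 to 59.4, against 7.10 for WT replicates 2 and 3 and 2.30 for KO replicates 2 and 3. Pan-macrophage markers were abundant, summing to 4820 to 5620 FPKM in WT and 8510 to 9200 FPKM in KO, with 5 of 11 higher and 2 lower in KO. Markers of other cells were mostly lower in KO, with 11 of 11 tested B cell markers called and summed levels of 366 to 446 FPKM in WT and 20.1 to 25.7 FPKM in KO. The calls were 5 of 5 for T and NK cells (sums 12.3 to 14.6 and 3.41 to 4.59 FPKM), 4 of 4 for mast cells (6.51 to 8.08 and 0.993 to 1.39 FPKM, *Mrgprb2* at 0 throughout) and 5 of 8 for dendritic cells (144 to 199 and 76.3 to 88.4 FPKM). For mesothelial cells and fibroblasts they were 4 of 7 (16.2 to 19.0 and 7.44 to 9.33 FPKM), and for neutrophils 2 of 9 (927 to 1250 and 698 to 815 FPKM). The extraction label speaks of retina, but 10 retinal markers summed to at most 0.865 FPKM in WT and 1.40 FPKM in KO. For comparison, 15.7% of all tested genes were called higher and 12.4% lower in KO. The part of these markers in the differences below was not tested. In bulk RNA, fewer cells of a type and less RNA per cell cannot be told apart.

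Asparagine, serine and proline synthesis and the mitochondrial folate arm held most of the genes that were higher in KO, and the cytosolic folate arm held most of those that were lower. Differences were tested with limma on log2(FPKM + 1) over the 11689 genes that averaged at least 0.5 FPKM, and a gene was called at a Benjamini-Hochberg adjusted p below 0.05. Of the 31 genes, 11 were higher, 4 were lower, 11 did not pass and 5 were too low to test. Over all tested genes 15.7% were higher and 12.4% were lower. Called rises with a log2 fold change of at least 1 were 8 of the 26 tested genes, against 126 of all 11689 tested genes (1.08%). The 31 genes were chosen with earlier results of these data known, so these shares describe the set and are not independent support. *Psph*, 1 of the 8, averaged 0.412 FPKM in WT and passed the filter through its KO values. The 26 tested genes had a median log2 fold change, KO minus WT, of 0.19, against 0.03 over all tested genes. Among mitochondrial genes 5 of 8 tested were higher and 0 lower, with a median of 0.64. Among cytosolic genes 6 of 18 were higher and 4 lower, with a median of 0.07. The difference between these compartments was not tested as such. Of the 26 tested genes 13 had all KO libraries above all WT libraries and 5 had all below, while groups did not overlap in either direction for 45.6% of all tested genes.

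Counts of calls depended on the processing. Rescaled to TPM, in which each library has the same sum, the whole table gave 511 higher and 1324 lower genes in place of 1833 and 1445, and these genes gave 10 and 4. Leaving out WT replicate 2, WT replicate 3, KO replicate 2 or KO replicate 3 lowered the whole-table counts to between 912 and 1167 higher and between 851 and 989 lower. In the same refits 10 of these genes were higher and 3 lower. Filtering at a mean of 2 FPKM gave 8 and 3 of these genes, where low members are no longer tested, and 1731 and 876 in the whole table. In every alternative that gave a value 12 of the 15 calls held, and the exceptions were *Aldh1l2*, *Shmt1* and *Glul*.

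**Figure D1:**
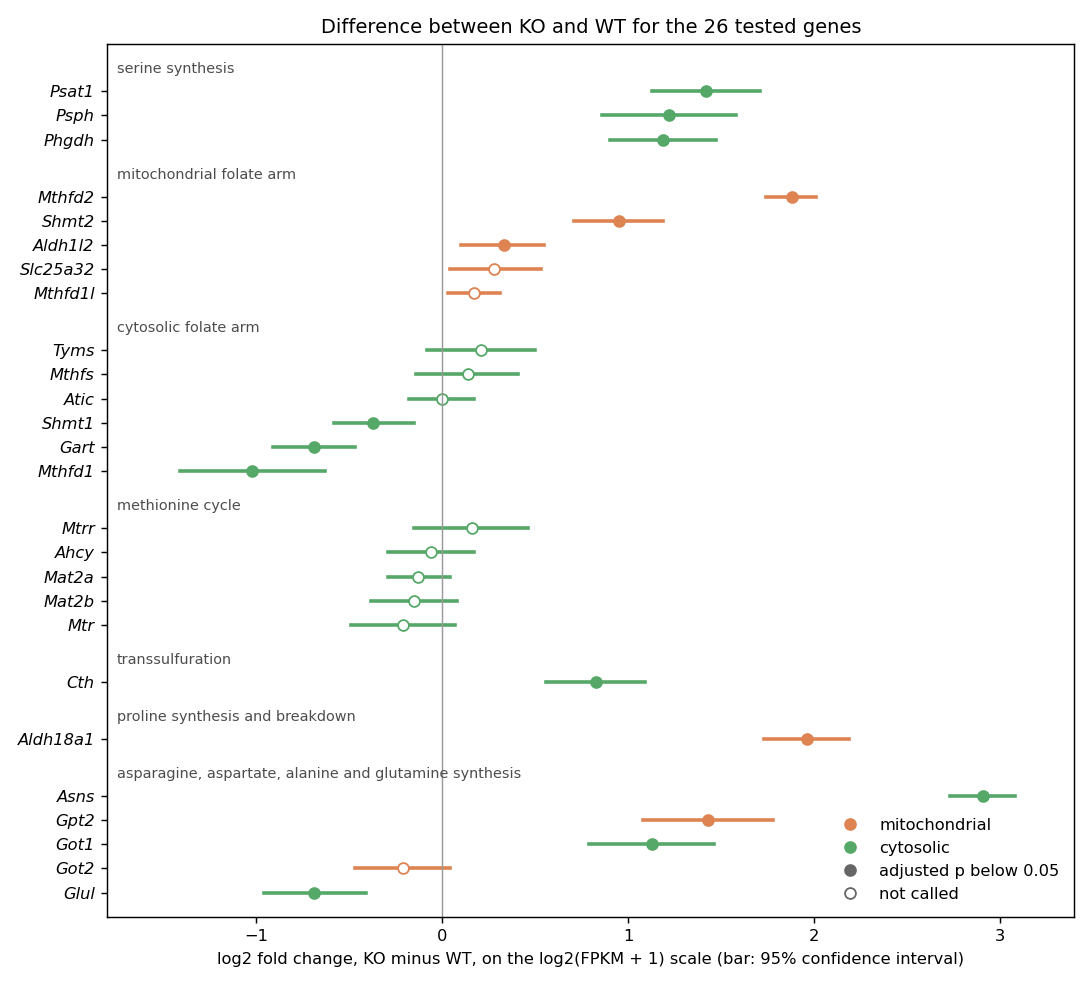
Log2 fold change (x axis, KO minus WT, from log2(FPKM + 1)) for the 26 tested genes, grouped by pathway, with 95% confidence intervals. Filled points passed adjusted p below 0.05 and colours mark the compartment. *Asns*, *Aldh18a1* and *Mthfd2* lie farthest to the right, at 2.91, 1.96 and 1.88, and *Mthfd1* lies farthest to the left, at -1.02.

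Promoter sequences are shown for the genes that rose most and for those that carry a core of the amino acid response element, the site that ATF4 and its C/EBP partners are known to bind. RefSeq start sites on GRCm38.p6 were available for 28 of the 31 genes, and windows of 250 bases before to 50 bases after the start were searched. The motif TGATGNAA (TTNCATCA on the other strand) was found for *Asns*, *Got1* and *Pycr1*, 3 of 28 genes or 10.7%, while 4.51% of all 27025 genes with a window held it. *Asns* and *Got1* were 2 of the 9 higher genes with a window (22.2%), so most higher genes held no match. *Pycr1* was too low to test. No window of the 4 lower genes or of the 10 uncalled genes with a window held the motif. Whether the motif goes with the direction of change was not tested in these few windows. In the list of 14 amino acid response regulators and targets, 5 held it (*Atf3*, *Chac1*, *Nupr1*, *Trib3* and *Vldlr*). The E-box CACGTG reads the same on both strands and shared no window of the 28 genes with the first motif. It was found for *Aldh18a1*, *Atic*, *Cbs* and *Tyms*, 14.3% against 8.09% of all genes. A match is a description of letters and not a measured site. The 250 bases before the start are given 5′ to 3′ on the gene's strand, with motif matches in capitals. The *Asns* window was chr6:7693210-7693459, with its match starting at -23 from the start site. The other windows, all on the minus strand too, were chr19:43524606-43524855 (*Got1*, match on the opposite strand at -102), chr11:120643749-120643998 (*Pycr1*, -103), chr19:40588464-40588713 (*Aldh18a1*, E-box at -59) and chr6:83317605-83317854 (*Mthfd2*, no match).
Asns: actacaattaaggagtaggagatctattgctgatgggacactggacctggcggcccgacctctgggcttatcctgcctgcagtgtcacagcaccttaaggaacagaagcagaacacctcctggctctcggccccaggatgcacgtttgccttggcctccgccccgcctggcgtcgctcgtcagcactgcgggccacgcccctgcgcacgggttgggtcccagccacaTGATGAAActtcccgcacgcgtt
Got1: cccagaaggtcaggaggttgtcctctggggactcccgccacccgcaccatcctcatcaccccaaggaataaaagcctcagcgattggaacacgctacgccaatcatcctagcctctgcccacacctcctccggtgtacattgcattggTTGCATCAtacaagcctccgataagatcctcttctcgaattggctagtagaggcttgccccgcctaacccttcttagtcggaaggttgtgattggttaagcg
Pycr1: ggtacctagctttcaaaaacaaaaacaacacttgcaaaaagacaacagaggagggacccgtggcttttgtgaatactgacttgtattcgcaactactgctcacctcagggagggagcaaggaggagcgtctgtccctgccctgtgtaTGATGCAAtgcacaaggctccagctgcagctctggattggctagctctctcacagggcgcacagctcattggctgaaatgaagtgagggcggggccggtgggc
Aldh18a1: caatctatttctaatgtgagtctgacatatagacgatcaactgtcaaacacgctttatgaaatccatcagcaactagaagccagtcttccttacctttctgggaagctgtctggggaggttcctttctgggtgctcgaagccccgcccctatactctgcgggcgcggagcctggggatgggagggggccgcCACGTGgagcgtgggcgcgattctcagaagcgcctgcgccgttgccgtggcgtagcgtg
Mthfd2: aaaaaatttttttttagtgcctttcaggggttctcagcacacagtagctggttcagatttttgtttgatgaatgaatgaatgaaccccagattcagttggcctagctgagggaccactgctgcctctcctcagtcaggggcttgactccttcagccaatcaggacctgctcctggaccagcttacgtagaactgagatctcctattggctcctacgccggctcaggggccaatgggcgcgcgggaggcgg

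The genes of asparagine, aspartate, alanine and glutamine synthesis went both ways, with 3 of 5 higher and 1 lower. *Asns*, asparagine synthetase (ENSMUSG00000029752, chromosome 6, 7675169 to 7693254, minus strand), stood at 10.6, 11.4 and 12.3 FPKM in WT replicates 1 to 3 and at 90.2, 93.7 and 91.9 FPKM in KO replicates 1 to 3. The KO libraries lay far above the WT libraries, with an SD of 1.77 FPKM among themselves. That small SD depends on the unequal FPKM scaling of KO replicate 1. *Asns* had 3155 of 14772746 reads in genes in KO replicate 1, 4045 of 15724897 in replicate 2 and 3769 of 14915816 in replicate 3. The group means of 11.4 and 91.9 FPKM differed 8.05-fold, a log2 fold change of 2.91 ± 0.07 (SE; limma, adjusted p = 1.75e-05), the largest of the 26 tested genes. Among all 31 *Asns* ranked 6 by mean FPKM in WT and 1 in KO. Its promoter, shown above, holds, of the 3 matches, the one closest to the start site.

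*Gpt2*, the mitochondrial alanine aminotransferase, was at 5.53, 4.18 and 5.12 FPKM in WT and at 12.4, 17.7 and 15.2 FPKM in KO. It was 3.06-fold higher in KO (log2 fold change 1.43 ± 0.15 SE, limma adjusted p = 0.00148), and the groups did not overlap. The 2 aspartate aminotransferases serve the malate-aspartate shuttle, which moves reducing equivalents into mitochondria, and they differed from each other in these libraries. The cytosolic *Got1* rose 2.27-fold, with 18.8, 15.6 and 15.3 FPKM in WT and 30.8, 40.8 and 41.1 FPKM in KO (limma adjusted p = 0.00277). The mitochondrial *Got2* did not pass, with 9.32, 7.38 and 8.79 FPKM in WT and 6.43, 7.58 and 7.55 FPKM in KO, where the groups overlapped. Its log2 fold change was -0.21 with a 95% confidence interval of -0.47 to 0.04 (limma adjusted p = 0.186).

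*Glul*, glutamine synthetase, was the member that fell. It was at 41.7, 31.2 and 35.7 FPKM in WT and at 20.6, 22.3 and 23.0 FPKM in KO, 1.65-fold lower (log2 fold change -0.69 ± 0.11 SE, limma adjusted p = 0.00771). It ranked 1 by level in WT and 4 in KO, so the highest-expressed gene of the set changed from *Glul* to *Asns*. Every KO library lay below every WT library.

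**Figure D2:**
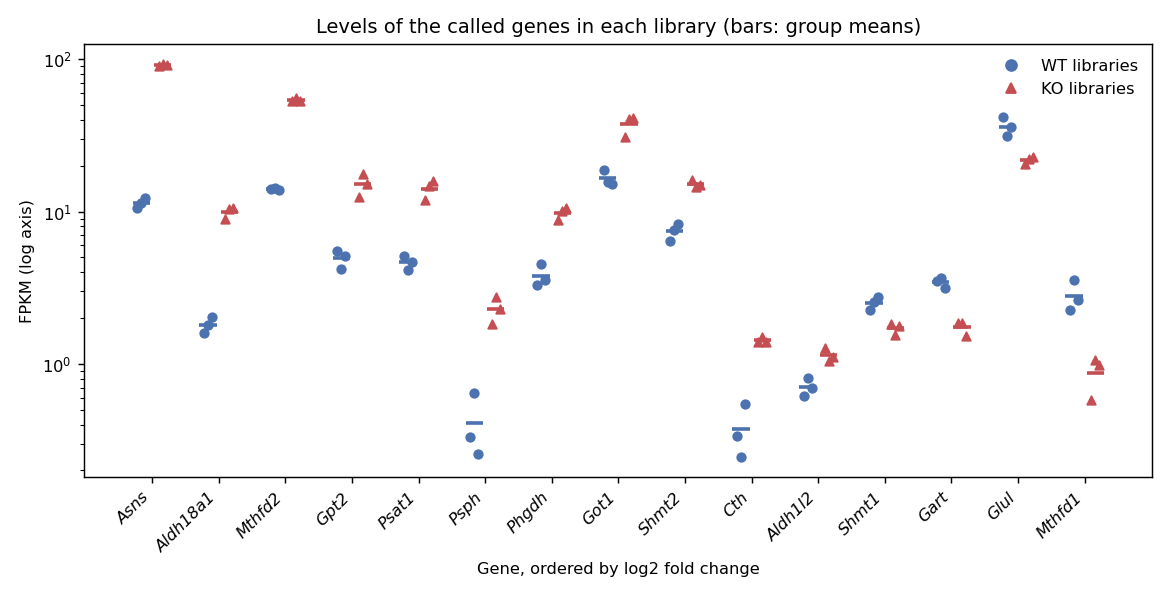
FPKM on a log axis (y axis) of the 15 called genes in each of the 3 WT (circles) and 3 KO (triangles) libraries, ordered by log2 fold change, with bars at the group means. The 11 genes on the left lie higher in KO and the 4 on the right lower, with no overlap between groups for any of them, and *Asns* moves from 11.4 to 91.9 FPKM.

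All 3 genes of serine synthesis rose. *Phgdh*, the first and committing dehydrogenase (chromosome 3, 98313170 to 98339990), was at 3.29, 4.51 and 3.57 FPKM in WT and at 8.87, 10.1 and 10.6 FPKM in KO, a 2.60-fold difference (limma adjusted p = 0.00132). *Psat1*, the aminotransferase of the pathway (chromosome 19, 15904678 to 15947337), was at 5.15, 4.11 and 4.68 FPKM in WT and at 12.0, 14.7 and 15.8 FPKM in KO, a 3.05-fold difference (limma adjusted p = 7.83e-04). *Psph*, the phosphatase that releases serine (chromosome 5, 129765558 to 129787449), was at 0.331, 0.647 and 0.258 FPKM in WT and at 1.84, 2.74 and 2.30 FPKM in KO (limma adjusted p = 0.00277). The *Psph* means differed 5.56-fold. On the log2(FPKM + 1) scale the changes of *Phgdh*, *Psat1* and *Psph* were 1.19, 1.42 and 1.22, and with a pseudocount of 0.1 they were 1.36, 1.58 and 2.28, since the larger pseudocount shrinks the change of the low gene *Psph* most. By FPKM, KO replicate 1 was the lowest KO library for each, as it was for 8 of the 11 genes that rose, while it was the highest for 2. Its FPKM are raised by its per-million total, as given above, so the order by share of reads can differ. The summed level of the 3 genes went from 8.85 ± 0.391 to 26.3 ± 3.19 FPKM (SD, n = 3 each), 2.97-fold. *Psph* shares 452 exon bases with *Cct6a* on the opposite strand, whose means were 18.4 FPKM for WT and 17.8 FPKM for KO. Whether counting used strand is not given, so reads of the 2 genes in that stretch cannot be told apart. *Cct6a* itself did not pass (log2 fold change -0.05, limma adjusted p = 0.683). *Phgdh* has processed pseudogenes that may share its reads, the most read being *Gm7901* at 10.4% of its level.

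In the mitochondrial folate arm 3 of 6 genes rose, none fell and 1 was too low to test. *Mthfd2*, the methylenetetrahydrofolate dehydrogenase and cyclohydrolase (chromosome 6, 83305691 to 83325908), was at 14.0, 14.2 and 13.9 FPKM in WT and at 53.4, 55.8 and 53.6 FPKM in KO. The group means of 14.1 and 54.3 FPKM differed 3.86-fold (log2 fold change 1.88 ± 0.06 SE, limma adjusted p = 2.8e-05). As for *Asns*, the closeness of the KO values depends on the unequal FPKM scaling of KO replicate 1. That library had 2382 *Mthfd2* reads of 14772746 in genes. KO replicates 2 and 3 had 3072 of 15724897 and 2803 of 14915816. *Shmt2*, which takes the carbon from serine in mitochondria (chromosome 10, 127517123 to 127522444), was at 6.42, 7.59 and 8.27 FPKM in WT and at 16.2, 14.5 and 14.9 FPKM in KO, 2.05-fold higher (limma adjusted p = 0.00161). Both genes lay well apart between the groups. *Aldh1l2*, the mitochondrial formyltetrahydrofolate dehydrogenase, was at 0.615, 0.804 and 0.692 FPKM in WT and at 1.27, 1.04 and 1.11 FPKM in KO. Its call was marginal (log2 fold change 0.33, limma adjusted p = 0.0429) and was lost when any 1 of the 6 libraries was left out, with adjusted p from 0.0602 to 0.114. It also shares 1056 exon bases with the opposite-strand gene *D10Wsu102e*, which did not pass (limma adjusted p = 0.728).

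The other 3 genes of this arm were not called. *Mthfd1l*, which releases formate from mitochondria, was at 12.4, 12.0 and 12.4 FPKM in WT and at 13.7, 13.7 and 14.4 FPKM in KO, without overlap but short of the threshold (log2 fold change 0.17, 95% confidence interval 0.03 to 0.31, limma adjusted p = 0.0736). The folate carrier gene *Slc25a32* was at 1.19, 1.09 and 0.920 FPKM in WT and at 1.29, 1.59 and 1.67 FPKM in KO (log2 fold change 0.28, 95% confidence interval 0.04 to 0.53, limma adjusted p = 0.0837). *Mthfd2l*, the paralogue of *Mthfd2*, was below the filter at 0.313 to 0.447 FPKM in WT and 0.277 to 0.482 FPKM in KO. In WT *Mthfd2* and *Mthfd1l* stood at similar levels, with means of 14.1 and 12.3 FPKM, and in KO at 54.3 and 14.0 FPKM.

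The cytosolic folate arm had 0 of 6 tested genes higher and 3 lower. *Mthfd1*, the trifunctional cytosolic enzyme that carries folate carbon between formate and methylene form (chromosome 12, 76255298 to 76319803), was at 2.25, 3.54 and 2.64 FPKM in WT and at 0.581, 1.06 and 0.991 FPKM in KO. It was 3.21-fold lower (log2 fold change -1.02 ± 0.16 SE, limma adjusted p = 0.00681), and its lowest WT library lay above its highest KO library. *Gart*, a trifunctional enzyme of purine synthesis that uses formyl-folate (chromosome 16, 91621186 to 91646952), was at 3.49, 3.68 and 3.14 FPKM in WT and at 1.85, 1.87 and 1.53 FPKM in KO, 1.96-fold lower (limma adjusted p = 0.00343). It shares 1014 exon bases with the opposite-strand gene *Gm15964*, whose means were 0.382 FPKM for WT and 0.518 FPKM for KO. *Shmt1*, the cytosolic counterpart of *Shmt2*, was at 2.25, 2.54 and 2.74 FPKM in WT and at 1.83, 1.55 and 1.77 FPKM in KO (log2 fold change -0.37, limma adjusted p = 0.0261). *Shmt1* no longer passed when WT replicate 2 was left out (adjusted p = 0.0735), nor without WT replicate 3 (0.085), KO replicate 2 (0.0916) or KO replicate 3 (0.0746). *Shmt1* also shares 184 exon bases with the opposite-strand gene *Smcr8*, whose means were 39.6 FPKM for WT and 41.7 FPKM for KO and which did not pass (limma adjusted p = 0.607).

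The other cytosolic folate genes did not pass. *Atic*, which completes purine synthesis with formyl-folate, was at 2.98 to 3.38 FPKM in WT and 3.04 to 3.32 FPKM in KO, with a 95% confidence interval of -0.18 to 0.17 for its log2 fold change. *Tyms*, thymidylate synthase, was at 0.399 to 0.711 FPKM in WT and 0.666 to 0.963 FPKM in KO (limma adjusted p = 0.236). *Mthfs*, which returns formyl-folate to use, was at 0.722 to 0.882 FPKM in WT and 0.829 to 1.27 FPKM in KO (limma adjusted p = 0.423). Its near copy *Mthfsl* (99.4% identical over 801 bases) stood at 269% of the level of *Mthfs* and may share its reads. The means of *Mthfsl* were 1.94 FPKM for WT and 2.87 FPKM for KO, and it did not pass (limma adjusted p = 0.067). *Aldh1l1*, the cytosolic counterpart of *Aldh1l2*, was too low to test, at 0.177 to 0.539 FPKM in WT and 0.415 to 0.617 FPKM in KO. Of 11 tested proliferation markers, which tend to go with *Tyms*, 2 were higher and 3 lower, beside 15.7% and 12.4% of all tested genes. Their sums were 83.6 to 97.9 FPKM in WT and 89.1 to 92.0 FPKM in KO. The 3 lower were *Mcm2*, *Mcm5* and *Mcm6* and the 2 higher were *Top2a* and *Ccnb1*, named after their values were seen, while *Mcm3* did not pass (log2 fold change 0.12).

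Within libraries, *Shmt2*, *Mthfd2* and *Mthfd1l* lay further above their cytosolic counterparts in KO than in WT, 2 of them against the same gene *Mthfd1*, and *Aldh1l2* did not. The balance was taken as log2(FPKM + 1) of the mitochondrial gene minus that of the cytosolic gene in each library. For *Shmt2* and *Shmt1* it was 1.19, 1.28 and 1.31 in WT and 2.60, 2.61 and 2.52 in KO, a difference of 1.32. For *Mthfd2* and *Mthfd1* it was 2.21, 1.75 and 2.03 in WT and 5.10, 4.79 and 4.78 in KO, a difference of 2.89. *Mthfd1l* and *Mthfd1* gave a difference of 1.19, made up of log2 fold changes of -1.02 for *Mthfd1* and 0.17 for *Mthfd1l*. *Got2* and *Got1* went the other way, from a mean of -0.89 ± 0.14 in WT to -2.23 ± 0.11 in KO (SD, n = 3 each). In each of these 4 pairs the groups did not overlap, and the exact two-sided permutation test gave p = 0.1, the smallest that 3 against 3 libraries allow (0.125 adjusted over the 5 pairs). For *Aldh1l2* and *Aldh1l1* the difference was 0.15, with overlapping groups (exact permutation p = 0.5).

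**Figure D3:**
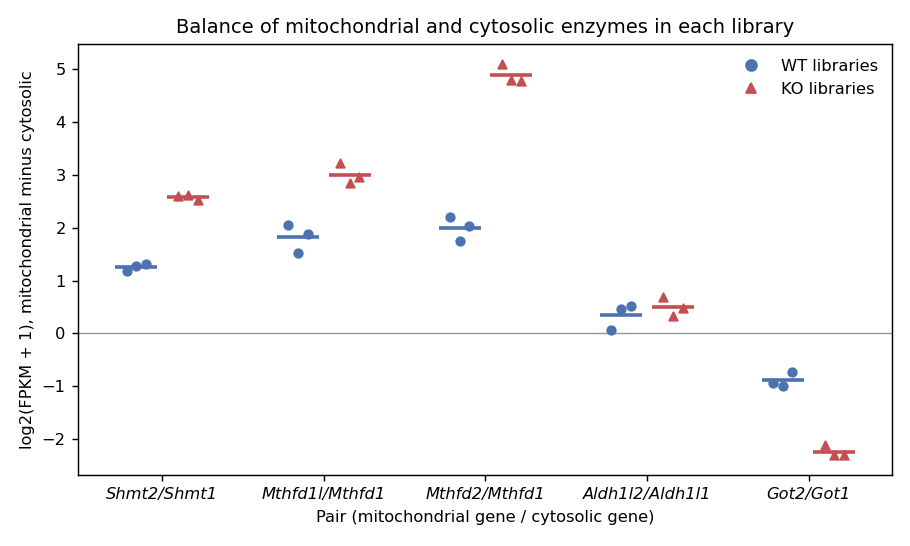
Difference in log2(FPKM + 1) between a mitochondrial and a cytosolic gene (y axis) in each WT (circles) and KO (triangles) library for 5 pairs, with bars at the group means. The first 3 pairs are higher in KO, by 1.32, 1.19 and 2.89, the *Got2* and *Got1* pair is lower, by -1.34, and the *Aldh1l2* and *Aldh1l1* pair overlaps.

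None of the 5 methionine cycle genes was called by limma. *Mat2a*, which makes S-adenosylmethionine and was the highest of them, was at 17.4, 17.9 and 19.8 FPKM in WT and at 16.4, 17.0 and 16.9 FPKM in KO. These values did not overlap, but the log2 fold change of -0.13 had a 95% confidence interval of -0.29 to 0.04 (limma adjusted p = 0.228). Its regulatory subunit gene *Mat2b* was at 2.84 to 3.29 FPKM in WT and 2.31 to 2.95 FPKM in KO. *Mtr*, methionine synthase, was at 0.849 to 1.26 FPKM in WT and 0.614 to 0.861 FPKM in KO, and *Mtrr*, its reductase, at 2.20 to 3.22 and 3.13 to 3.52 FPKM. *Ahcy*, which clears the spent methyl donor, was at 6.83 to 8.29 FPKM in WT and 6.42 to 7.64 FPKM in KO. Reads of *Ahcy* may be divided with *Gm4737*, a copy 99.7% identical over 2083 bases. The 5 genes summed to 32.7 ± 1.55 FPKM for WT and 30.4 ± 0.408 FPKM for KO (SD, n = 3 each). The confidence intervals of the 5 log2 fold changes ran from -0.49 at the lowest to 0.46 at the highest, and the pseudocount narrows those of low genes such as *Mtr*.

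Of the transsulfuration genes, which turn homocysteine into cysteine, *Cth* rose. It encodes the second enzyme, cystathionine gamma-lyase, and was at 0.335, 0.243 and 0.544 FPKM in WT and at 1.40, 1.50 and 1.39 FPKM in KO, 3.82-fold higher on 216 reads in all (limma adjusted p = 0.0036). The first enzyme, *Cbs*, had 19 reads over the 6 libraries and was at most 0.117 FPKM. *Cth* and *Psph* had WT means under 0.5 FPKM and passed the filter through their KO values, and both were also called without the filter.

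Of the 3 proline genes of the set, 1 was high enough to test, and it rose. *Aldh18a1*, which encodes the mitochondrial enzyme that starts proline synthesis from glutamate (chromosome 19, 40550257 to 40588463), was at 1.59, 1.81 and 2.02 FPKM in WT and at 8.91, 10.4 and 10.5 FPKM in KO. It rose 5.50-fold (log2 fold change 1.96 ± 0.10 SE, limma adjusted p = 1.12e-04) and moved from rank 19 to rank 10 of the 31 genes. *Pycr1*, the mitochondrial reductase that finishes proline, was too low to test at 0.122 to 0.254 FPKM in WT and 0.170 to 0.322 FPKM in KO, on 71 reads. *Prodh*, which breaks proline down, was also too low, at 0.154 to 0.224 and 0.137 to 0.241 FPKM. A cytosolic reductase gene, *Pycrl*, picked once its values were known, did not pass, with a log2 fold change of -0.43 (limma adjusted p = 0.0769).

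**Figure D4:**
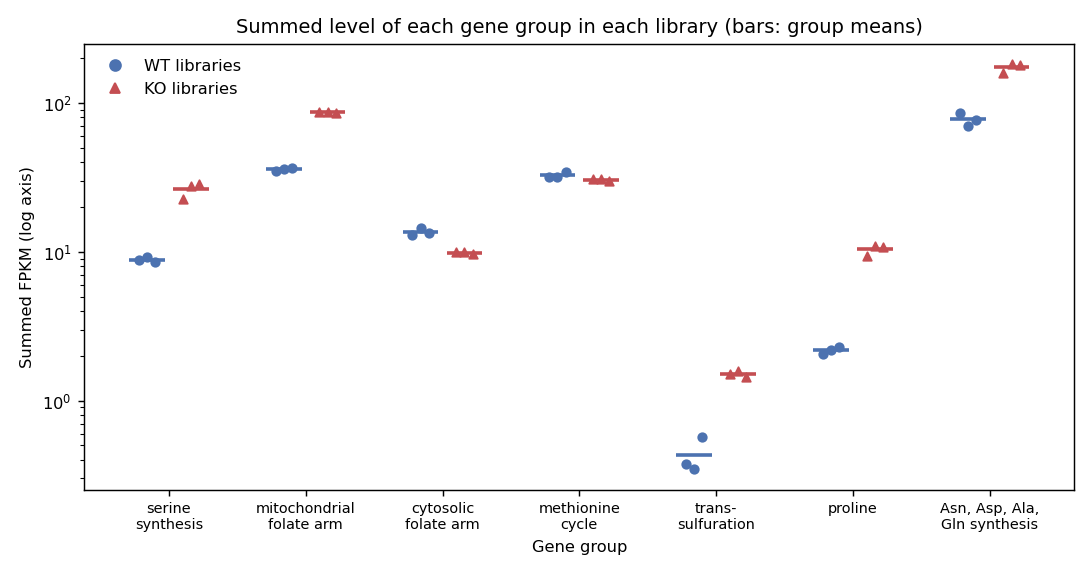
Summed FPKM on a log axis (y axis) of the 7 gene groups (x axis) in each WT (circles) and KO (triangles) library, with bars at the group means. The mitochondrial folate arm goes from 35.9 to 86.5 FPKM, the cytosolic folate arm from 13.7 to 9.84 FPKM, and the methionine cycle lies at 32.7 and 30.4 FPKM.

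The neighbouring genes of these pathways held calls in both directions. The shares over all tested genes were 15.7% higher and 12.4% lower. Several counts in this paragraph and the next lie near these shares, and none was tested against them. Of 8 tested folate and glycine cleavage genes outside the set, 3 were higher and 1 lower, with a median log2 fold change of 0.17. The folate receptor gene *Folr2* rose from 2.38, 1.59 and 2.17 FPKM to 4.35, 4.14 and 3.67 FPKM, 1.98-fold (limma adjusted p = 0.0073), and *Dld*, a subunit shared by glycine cleavage and the oxo-acid dehydrogenases, rose 1.65-fold. *Fpgs*, which retains folate in cells by adding glutamates, fell to 0.961 from 1.69 FPKM (limma adjusted p = 0.0102). Of 12 purine synthesis genes 5 were lower and 2 higher, with a median of -0.15. *Prps2*, which makes the ribose precursor, fell from 1.85, 2.32 and 2.43 FPKM to 0.787, 0.703 and 0.775 FPKM (limma adjusted p = 0.00214). *Pfas*, another early enzyme, fell from 1.25 to 0.469 FPKM (limma adjusted p = 0.0172). The purine salvage gene *Hprt* and the adenylosuccinate synthase gene *Adss* were the 2 that rose, 1.38-fold and 1.33-fold.

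Of 11 tested methionine cycle and salvage genes 3 were higher and 2 lower (median 0.11). *Ahcyl1* rose 1.60-fold and *Adi1* 1.67-fold, while the salvage genes *Mtap* and *Mri1* fell to 1.10 from 2.11 FPKM and to 1.02 from 1.57 FPKM. Of 5 tested proline and ornithine genes 2 were higher and 1 lower (median -0.17), the rises being *P4ha1* at 1.30-fold and *Oat* at 1.19-fold, and *P4ha2* the fall. Of 10 genes of glutamine, glutamate, aspartate and branched-chain metabolism 1 was higher and 2 lower (median 0.04). *Slc25a13*, a mitochondrial aspartate carrier, rose 1.70-fold, and the pyrimidine synthesis gene *Cad* fell from 2.92 to 1.23 FPKM (limma adjusted p = 0.0059), as did *Mdh1* from 19.3 to 14.9 FPKM. Of 9 genes of serine use and transport 1, *Serinc1*, was higher (1.36-fold) and 0 were lower (median 0.16).

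Amino acid response regulators and targets were mostly higher, with 8 of 13 tested genes called higher and 1 lower and a median log2 fold change of 0.69. Among all tested genes 15.7% were called higher and 12.4% lower. *Atf4* itself, named after its values were seen, was at 168, 178 and 190 FPKM in WT and at 314, 275 and 278 FPKM in KO, 1.62-fold higher (limma adjusted p = 0.00347). The ATF4 targets *Chac1* and *Trib3* were the largest rises, at 18.5-fold and 9.85-fold, and the fall was *Eif2ak3*, the endoplasmic reticulum stress kinase, from 3.39 to 1.11 FPKM (limma adjusted p = 0.00343). The 11 rises among the 31 genes and these 8 come from the same libraries and are not independent of each other. *Atf4* RNA is not a measure of ATF4 protein.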

How the data were processed

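RNA-seq values of 6 libraries were analysed. FPKM, gene coordinates and gene lengths come from a single table that the authors deposited, on GRCm38 (mm10) according to the submitters' processing notes. No aligner, counting tool or strand setting is named there (not given in the sources used here). Of the 31 members 30 had the same start and end in GENCODE M21. Dividing FPKM times deposited length by a library's step gave whole numbers (tolerance 0.05) for 100% of nonzero values, and these were taken as reads. FPKM is not a count, so limma 3.58.1 in R 4.3.3 was fitted to log2(FPKM + 1) with genotype alone and an intensity trend, two-sided, over the 11689 genes that averaged at least 0.5 FPKM. Fold changes on this scale understate those of low genes, and folds in the text are ratios of mean FPKM. The members and lists were chosen with earlier results of these data known. All members are named, and per-library values are given for called members with a log2 fold change of at least 0.58 in size, for serine synthesis and for others where a result turns on them. From each neighbouring list up to 2 called rises and 2 called falls of largest size were eligible. Some genes of the neighbouring lists are not reported here. Exon overlaps came from GENCODE M21 and near copies (at least 95% identity over 200 bases) from BLAST 2.17.0. Scripts were tested on simulated data. Alternatives were another pseudocount (0.1), filter (none, or 2 FPKM) or scaling, a replicate block, and leaving out libraries with the tested genes kept.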

Additional observations from a re-analysis of the deposited data

How the results depend on the processing

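Of 15 called members 12 kept direction and call in every alternative that gave a value, covering the pseudocount (0.1), the filter (none, or 2 FPKM), quantile normalization, TPM, the replicate block and libraries left out. Over all genes, calls higher in KO fell from 1833 to 511 in TPM, 542 in TPM over the same genes (chosen after seeing the data) and 479 with the replicate block, and ranged from 912 to 1681 with 1 library left out. Calls lower in KO went from 1445 to 876 with the 2 FPKM filter, where fewer genes are tested, and to 604 with the replicate block, and ranged from 851 to 1337 with 1 library left out. The replicate block left 2 members lower in KO, both cytosolic, since *Shmt1* (adjusted p = 0.101) and *Glul* (0.0534) were lost, and 10 higher. Deviations from group means of same-numbered libraries had correlations of -0.5, -0.19 and -0.16. Deviations from the mean of only 3 libraries are tied to each other, so these values cannot show whether the libraries were paired. *Aldh1l2* was lost in 11 of 14 alternatives (adjusted p 0.0143 to 0.145 over all) and *Shmt1* in 7 of 15 (0.0239 to 0.101). *Slc25a32* passed with quantile normalization (adjusted p = 0.03) and without both replicate 1 libraries (0.0451), and *Mat2a* passed with quantile normalization (0.0472). *Atic*, at a log2 fold change of 0.00, changed sign with quantile normalization (0.06), without both replicate 1 libraries (0.02) and between -0.04 and 0.03 with 1 library left out. *Ahcy* went from -0.11 to 0.01 with 1 library left out. Where no construction of the alternative accounts for a change, the cause was not tested. The planned count models edgeR and DESeq2 were not run, since the deposited unit is FPKM. In their place limma-voom on recovered reads, chosen after seeing the data, called 2000 genes higher and 1570 lower, among them 11 and 4 members. Depth limits *Cbs*, *Pycr1*, *Prodh*, *Aldh1l1* and *Mthfd2l*, with 19 to 216 reads each over 6 libraries.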
